A study of Mus musculus with 6 samples.

Results

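The T, NK and B lymphocyte genes are 38 genes of known lymphocyte function: 25 of T and natural killer (NK) cells, 10 of B cells and 3 made by all leukocytes. Each was read on its brightest probe set, the one with the highest mean over the 6 arrays among the probe sets whose only gene symbol was that gene. By this rule 37 of the 38 were measured, on 60 probe sets in all, out of 18193 genes on the array. Lck, the kinase at the head of T cell receptor signalling, was not analysed here.

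The samples were primary mammary epithelial organoids, small clusters of epithelium obtained by digesting mammary tissue, from 8-week-old mice of a mixed background (129/J and C57BL/6 by the labels, while the methods give 129SV for the first), with 1 mouse per Affymetrix array. The 3 wild type (WT) arrays, WT1, WT2 and WT3, came from mice that carried floxed Wwox alleles on both chromosomes and no Cre (BK5-cre -; WWOX flox/flox). The 3 knockout (KO) arrays, KO5, KO6 and KO7, came from mice with the same floxed alleles and Cre under the bovine keratin 5 promoter, which is active in basal epithelium (BK5-cre +; WWOX flox/flox). Every KO mouse and no WT mouse carried Cre, so an effect of Cre and the loss of Wwox cannot be told apart. Values are deposited log2 values, differences are KO minus WT on that scale, and where 3 values are given for a group they stand in the order WT1, WT2, WT3 or KO5, KO6, KO7.

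Mature T cells carry a T cell receptor that signals through the CD3 chains and CD247, and they are divided by the coreceptors CD4 and CD8. Cytotoxic T cells and NK cells kill target cells with granzymes, perforin and Fas ligand and secrete interferon gamma. B cells carry an immunoglobulin receptor that signals through CD79A and CD79B. Lymphocytes are found in the normal mammary gland, between the epithelial cells and in the stroma, and in the lymph node that lies in the mammary fat pad.

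For 28 of the 38 genes the RefSeq table of mouse build GRCm38.p6 held a promoter, in 33 windows because some genes have several starts. The octamer ATGCAAAT, bound by the POU factors that Pou2af1 assists, and the pattern bound by the B cell factor EBF1 (TCCC and GGGA with 2 free bases between them) were searched on both strands in a window from 250 bases before to 50 after the gene start; the patterns do not overlap. The octamer was found in 0 of the 33 windows of these genes and in 1.74% of the 32851 windows of the table. The EBF1 pattern was found in 1 of the 33, that of Cd22, and in 0.904% of all windows. The 250 bases before the start are shown, from 5′ to 3′ on the gene's strand, for the neighbours Cd3g (chr9:44980432-44980681, minus strand) and Cd3d (chr9:44981536-44981785, plus strand), whose starts lie 1355 bases apart on opposite strands and which had the most negative differences of the members, and for Cd22 (chr7:30879029-30879278, minus strand), where capitals mark the EBF1 pattern, whose first base is 49 bases before the start.
Cd3g: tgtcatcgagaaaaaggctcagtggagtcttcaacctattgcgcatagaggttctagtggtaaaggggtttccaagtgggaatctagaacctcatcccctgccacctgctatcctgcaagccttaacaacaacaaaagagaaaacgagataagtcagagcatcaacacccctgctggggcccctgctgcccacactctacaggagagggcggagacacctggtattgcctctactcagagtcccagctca
Cd3d: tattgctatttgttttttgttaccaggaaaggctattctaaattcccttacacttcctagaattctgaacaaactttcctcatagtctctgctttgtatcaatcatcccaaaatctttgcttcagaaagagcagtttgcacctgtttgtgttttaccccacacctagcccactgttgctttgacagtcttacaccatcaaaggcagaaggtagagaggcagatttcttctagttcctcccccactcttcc
Cd22: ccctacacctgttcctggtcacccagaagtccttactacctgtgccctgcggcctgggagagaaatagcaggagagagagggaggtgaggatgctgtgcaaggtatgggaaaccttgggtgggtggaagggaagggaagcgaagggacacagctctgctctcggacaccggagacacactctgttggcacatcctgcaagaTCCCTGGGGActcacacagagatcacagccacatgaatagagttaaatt

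The epithelial markers were present on all 6 arrays: the luminal keratin Krt8, near the top of the signal range, read 14.40 to 14.71 and the basal keratin Krt5 8.81 to 9.13, while the milk protein Csn2 (6.30 to 10.68) and the luminal factor Elf5 (9.14 to 11.11) varied widely. Wwox, on its brightest probe set, averaged 7.71 ± 0.07 over the WT arrays and 6.02 ± 0.19 over the KO arrays (SD, n = 3 each), a difference of -1.69 (SE 0.13; limma adjusted p = 0.0228). RNA quality differed: the mean 3′ minus 5′ difference of the Gapdh and beta-actin control probe sets was 0.96, 2.13 and 1.80 on the WT arrays and 0.55, 0.60 and 0.54 on the KO arrays (two-sided exact permutation test, p = 0.1, the smallest that 3 against 3 allows). Its part in the results was not tested beyond a fit with it as a covariate. The number of arrays limits the precision of every value.

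The lymphocyte genes differed above all from array to array, with 1 mouse per array. Over the 6 arrays their range had a median of 2.16 on the log2 scale, against 0.57 over all genes, and it exceeded 2 in 20 of the 37 genes (54.1%) against 1.93% of all genes. The SD within WT had a median of 1.08 over the 37 genes and 0.19 over all genes. Within KO these medians were 0.48 and 0.15. Arrays WT1, WT2 and KO6 were high and WT3, KO5 and KO7 low. WT1 was the highest array in 32 of the 37 genes (14.4% of all genes), and KO6 was the highest KO array and above WT3 in 30 (25.4% of all genes).

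On their brightest probe sets all 37 measured genes had a lower mean in KO than in WT, as did 61.2% of all genes. Some differences were near 0, such as -0.03 for Pax5 and -0.06 for Zap70. Dimmer probe sets of Il2rb (0.14) and Prf1 (0.10) were higher in KO. The median difference of the 37 genes was -0.82, against -0.06 over all genes. It was -1.00 over the 24 T and NK genes, -0.48 over the 10 B cell genes and -1.20 over the 3 leukocyte genes. A gene was called where limma gave an unadjusted p under 0.01 and the groups differed 2-fold or more. Fasl was the 1 gene called lower (0.462% of all genes), and 0 of the 37 were called higher (0.517% of all genes). At an unadjusted p under 0.05, 5 of the 37 (13.5%) were lower, Fasl, Gzmb, Gzma, Ifng and Klrd1, and 0 higher, against 13% of all genes lower. Genes whose 3 WT values all exceeded all 3 KO values also numbered 5 (13.5%), Zap70 in place of Klrd1, against 16.1% of all genes. The reverse order was found in 0 of the 37 and in 7.2% of all genes. Both shares of lower genes are near those of the array as a whole, and in 32 of the 37 genes the groups overlapped.

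The counts turned on single arrays. Without WT3, 8 T and NK genes were called lower and 1 B cell gene, Bank1, with 1.03% of all genes called lower, and the medians were -1.29 and -0.85. Without WT1, Fasl was the 1 member called lower (0.846% of all genes), and the medians were -0.39 over the T and NK genes and -0.05 over the B cell genes. In that fit Il2rb (0.18), Prf1 (0.11), Klrk1 (0.14), Cr2 (0.08), Cd37 (0.06) and Pou2af1 (0.28) had positive differences and Cd8a one of 0.00. Without WT2, 3 T and NK genes were called lower (0.269% of all genes), and without KO7, 2 (0.467%). With the 3′ minus 5′ difference as a covariate, 7 T and NK genes and 1 B cell gene were called lower (0.55% of all genes), with medians of -1.96 and -1.58. The called genes had limma adjusted p of 0.48 (Ifng) to 0.927 (Gzmb). The covariate was higher on every WT array than on any KO array and nearly constant within KO (0.54 to 0.60). This fit therefore cannot tell RNA quality and genotype apart. With RNA from whole organoids, fewer cells of a type and less RNA per cell cannot be told apart.

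**Figure D1:**
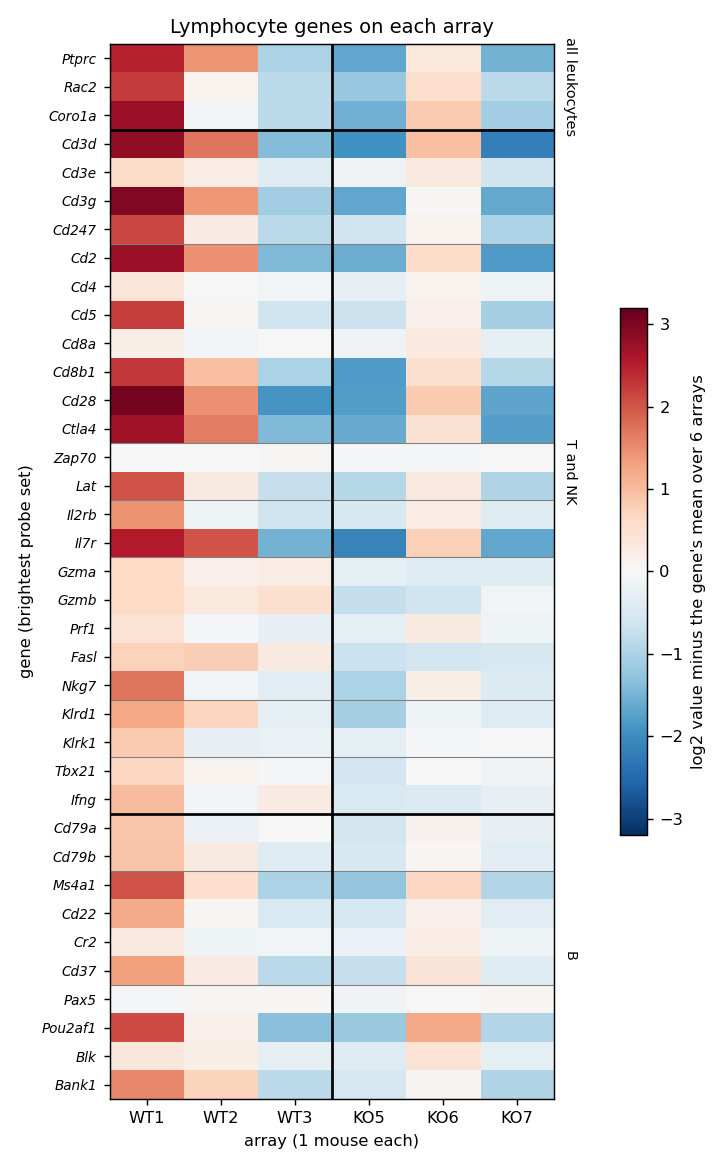
Deposited log2 values of the 37 measured genes (vertical axis, by role) on the 6 arrays (horizontal axis), each shown as its deviation from the gene's mean over the arrays. WT1, WT2 and KO6 are high for most genes and WT3, KO5 and KO7 low, and the granzymes, Fasl and Ifng are lower on KO6 than on WT3.

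Of the genes that all leukocytes make, Ptprc encodes CD45, the tyrosine phosphatase on their surface. Ptprc read 11.29, 10.24 and 7.81 in WT and 7.16, 9.18 and 7.32 in KO. KO6 lay above WT3, so the groups overlapped. The means were 9.78 ± 1.79 and 7.89 ± 1.12 (SD, n = 3 each), a difference of -1.89 (SE 0.90; limma adjusted p = 0.306), which was -2.88 and called lower without WT3 and -1.14 without WT1. Coro1a, which binds actin in leukocytes, read 9.86, 7.01 and 6.26 in WT and 5.57, 7.95 and 6.00 in KO. Rac2, a small GTPase of blood cells, read 9.02, 6.89 and 5.92 against 5.58, 7.35 and 5.96. For both, KO6 exceeded WT2 as well as WT3. A second Coro1a probe set read 9.64, 7.73 and 6.12 in WT and 5.07, 7.08 and 5.12 in KO, with KO6 below WT2 and a difference of -2.08 against -1.20. Without WT1 the differences of Coro1a and Rac2 were -0.13 and -0.10.

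Among the T cell receptor chains, Cd3g and Cd3d had the most negative differences of the 37 genes. Cd3g, a signalling chain of the receptor complex, read 9.24, 7.67 and 5.15 in WT and 4.61, 6.31 and 4.64 in KO. WT1 and WT2 were high, and KO6 lay between them and WT3. The difference was -2.16 (SE 0.97; limma adjusted p = 0.282). Cd3d, its neighbour on chromosome 9, read 10.27, 9.13 and 6.04 in WT and 5.50, 8.39 and 5.25 in KO. Its range of 5.02 was the widest of the 37 genes, and its difference was -2.10 (SE 1.19; limma adjusted p = 0.388). Without WT3 the differences were -3.27 for Cd3g and -3.32 for Cd3d, and both were called lower, while without WT1 they were -1.22 and -1.21, neither called. Cd247, the zeta chain, read 7.45, 5.56 and 4.43 in WT and 4.67, 5.42 and 4.29 in KO. Cd3e, the chain with which CD3 gamma and delta pair, had a narrower spread, at 7.49, 7.13 and 6.48 in WT and 6.78, 7.20 and 6.26 in KO. The same 3 arrays were the high ones for Cd3e, with a difference of -0.29.

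Surface molecules of T cells were high on the same 3 arrays where their probe sets varied. Cd28, the costimulatory receptor, read 9.28, 7.68 and 4.33 in WT and 4.43, 7.04 and 4.52 in KO. WT3 was its lowest array, below all 3 KO arrays. Ctla4, the inhibitory receptor that competes with CD28, read 9.07, 8.02 and 4.99 in WT and 4.78, 6.87 and 4.64 in KO. Cd2, an adhesion molecule of T and NK cells, read 8.89, 7.61 and 4.72 against 4.55, 6.72 and 4.32. The differences of Cd28, Ctla4 and Cd2 were -1.77, -1.93 and -1.88, none called, and without WT3 they were -3.15, -3.12 and -3.06, all called lower. Without WT1 they were -0.67, -1.08 and -0.97, none called. Cd8b1, the beta chain of the CD8 coreceptor, read 7.36, 6.05 and 4.09 in WT and 3.28, 5.61 and 4.19 in KO, and Cd5, a negative regulator of receptor signalling, ranged from 3.80 on KO7 to 7.06 on WT1.

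The brightest probe sets of Cd4 and Cd8a were nearly flat. Cd4 read 6.72, 6.32 and 6.24 in WT and 6.07, 6.43 and 6.19 in KO. Cd8a read 6.08, 5.79 and 5.89 in WT and 5.77, 6.18 and 5.57 in KO, a difference of -0.08. A dimmer probe set of Cd8a read 6.71, 5.41 and 4.65 against 4.88, 5.40 and 4.29, with WT1, WT2 and KO6 high as for Cd8b1, so the choice of the brightest probe set bears on this gene. Zap70, the kinase recruited to the phosphorylated receptor chains, was flatter still: its range was 0.08, the least of the 37 genes, and its WT arrays lay above its KO arrays by a mean of 0.06. A dimmer Zap70 probe set read 5.98, 4.80 and 4.41 in WT and 4.07, 4.92 and 4.06 in KO. Lat, the adaptor that ZAP-70 phosphorylates, read 8.95, 7.22 and 6.18 in WT and 6.02, 7.23 and 5.95 in KO.

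Among the cytokine receptor genes, Il7r, whose product naive and memory T cells need for survival, read 10.39, 9.85 and 6.32 in WT and 5.71, 8.60 and 6.19 in KO. WT1, WT2 and KO6 stood together above the other 3 arrays. The difference was -2.02 (SE 1.15; limma adjusted p = 0.389), which was -3.29 and called lower without WT3 and -1.25 without WT1. Il2rb, the beta chain of the interleukin 2 and 15 receptors, read 7.70, 6.09 and 5.63 in WT and 5.75, 6.50 and 5.87 in KO, with WT3 lowest.

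Granzymes, Fas ligand and interferon gamma did not follow this division of the arrays. Fasl, the death ligand of cytotoxic cells, read 5.61, 5.65 and 5.17 in WT and 4.19, 4.27 and 4.36 in KO. All 3 WT arrays lay above all 3 KO arrays, and WT3 and KO6 stood with their groups. Fasl fell from 5.48 ± 0.27 to 4.27 ± 0.09 (SD, n = 3 each), a log2 change of -1.21 (SE 0.15), or 2.31-fold lower (limma adjusted p = 0.0459). Its level was low: its mean of 4.88 did not exceed 4.99, the 95th percentile of 39 olfactory receptor genes, which are hardly transcribed outside the nose. The other Fasl probe set read 4.95, 4.37 and 4.47 in WT and 4.54, 4.40 and 4.38 in KO, a difference of -0.16, and on the mean of both probe sets (-0.68) Fasl was not called, nor was it against WT3 alone, where -0.90 missed the fold limit.

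Gzmb, a serine protease of cytotoxic granules, read 7.69, 7.38 and 7.55 in WT and 6.28, 6.42 and 6.95 in KO. The groups did not overlap. The means were 7.54 ± 0.16 and 6.55 ± 0.35 (SD, n = 3 each), a difference of -0.99 (SE 0.19; limma adjusted p = 0.0675), 1.98-fold lower and just short of the fold limit for a call. It passed that limit without WT2 (-1.07) and without KO7 (-1.19). Gzma, another granzyme, read 8.07, 7.59 and 7.67 in WT and 7.14, 7.03 and 7.04 in KO. The KO arrays were close together (SD 0.06) and all below the WT arrays. Its difference was -0.71 (SE 0.15; limma adjusted p = 0.0757), 1.63-fold lower and not called. Ifng, the cytokine of T helper 1 and NK cells, read 5.83, 4.74 and 5.09 in WT and 4.35, 4.39 and 4.57 in KO. The groups did not overlap, the difference was -0.78 (SE 0.26; limma adjusted p = 0.168), and its mean of 4.83 was no higher than the olfactory receptor level; the difference was -1.02 and called without WT2, and -0.48 without WT1.

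**Figure D2:**
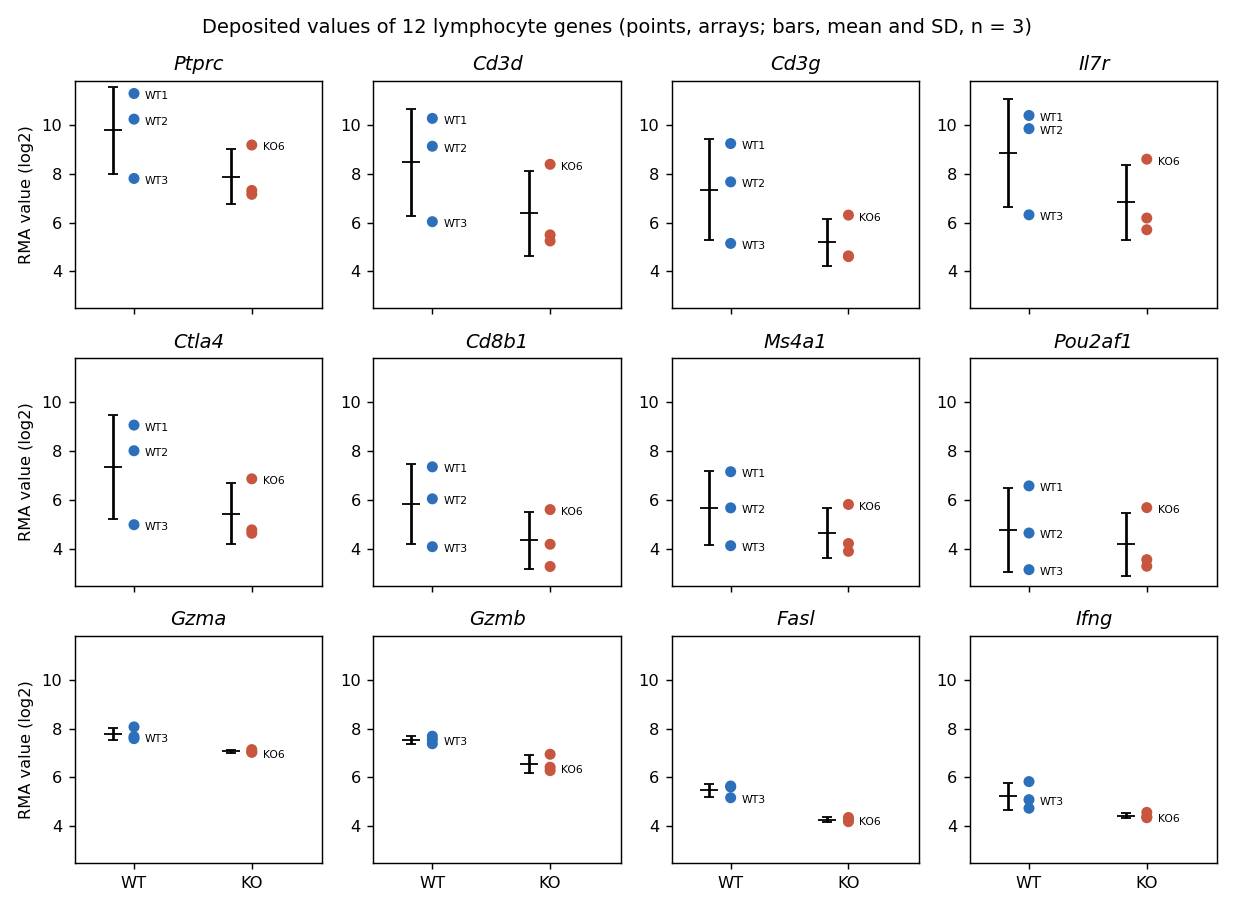
Deposited log2 values of 12 of the genes (vertical axis) in WT and KO (horizontal axis), with a point per array and bars for the mean and SD, n = 3. In the top 8 panels KO6 lies above WT3, while Gzma, Gzmb, Fasl and Ifng have no KO array as high as any WT array.

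The other cytotoxic and NK genes overlapped between the groups. Nkg7, a granule membrane protein, read 8.62, 6.82 and 6.55 in WT and 5.90, 7.14 and 6.48 in KO. Here KO6 lay above WT2 and WT3. Prf1, which encodes perforin, read 6.07, 5.55 and 5.33 in WT and 5.30, 5.88 and 5.47 in KO, a difference of -0.10. Klrd1, the CD94 chain of NK receptors, read 7.01, 6.48 and 5.47 against 4.72, 5.65 and 5.36. KO6 alone of the KO arrays lay above WT3, the difference was -1.07 (SE 0.40; limma adjusted p = 0.208), and without WT3 it was -1.50 and called lower, and without WT1 -0.73. Klrk1, the activating receptor NKG2D, had a difference of -0.22 and Tbx21, the T-bet factor that drives interferon gamma, one of -0.49, neither called.

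Of the 10 B cell genes, 5 had a mean above the olfactory receptor level, as did 19 of the 24 T and NK genes and 12955 of all 18193 genes. Ms4a1, which encodes CD20, read 7.16, 5.68 and 4.13 in WT and 3.90, 5.82 and 4.22 in KO. WT1, KO6 and WT2 were high and the other arrays low, and the difference was -1.01 (SE 0.78; limma adjusted p = 0.53). Cd79a, a signalling chain of the B cell receptor, read 5.78, 4.72 and 4.91 in WT and 4.31, 5.04 and 4.64 in KO. Cd79b, its partner, read 5.45, 4.84 and 4.13 in WT and 4.04, 4.61 and 4.2 in KO. Both had their highest value on WT1 and their lowest on KO5, and the groups overlapped. Cd22, an inhibitory coreceptor, read 7.12, 5.97 and 5.45 against 5.41, 6.10 and 5.58, with KO6 above WT2. Cr2, the complement receptor of mature B cells, was below that level, at 4.29, 3.83 and 3.88 in WT and 3.77, 4.21 and 3.84 in KO.

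Pou2af1, the B cell coactivator of octamer factors, had the widest range of the B cell genes, at 6.58, 4.65 and 3.15 in WT and 3.29, 5.69 and 3.56 in KO. WT3 was its lowest array. Bank1, a scaffold of B cell receptor signalling, read 6.59, 5.77 and 4.21 in WT and 4.51, 5.12 and 4.07 in KO, a difference of -0.96 (SE 0.57; limma adjusted p = 0.41), which was -1.61 and called lower without WT3 and -0.42 without WT1. Cd37, a tetraspanin of B cells, differed by -0.47 and Blk, a kinase of B cells, by -0.17. Pax5, the factor that sets B cell identity, was flat, from 5.14 on KO5 to 5.31 on KO7.

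**Figure D3:**
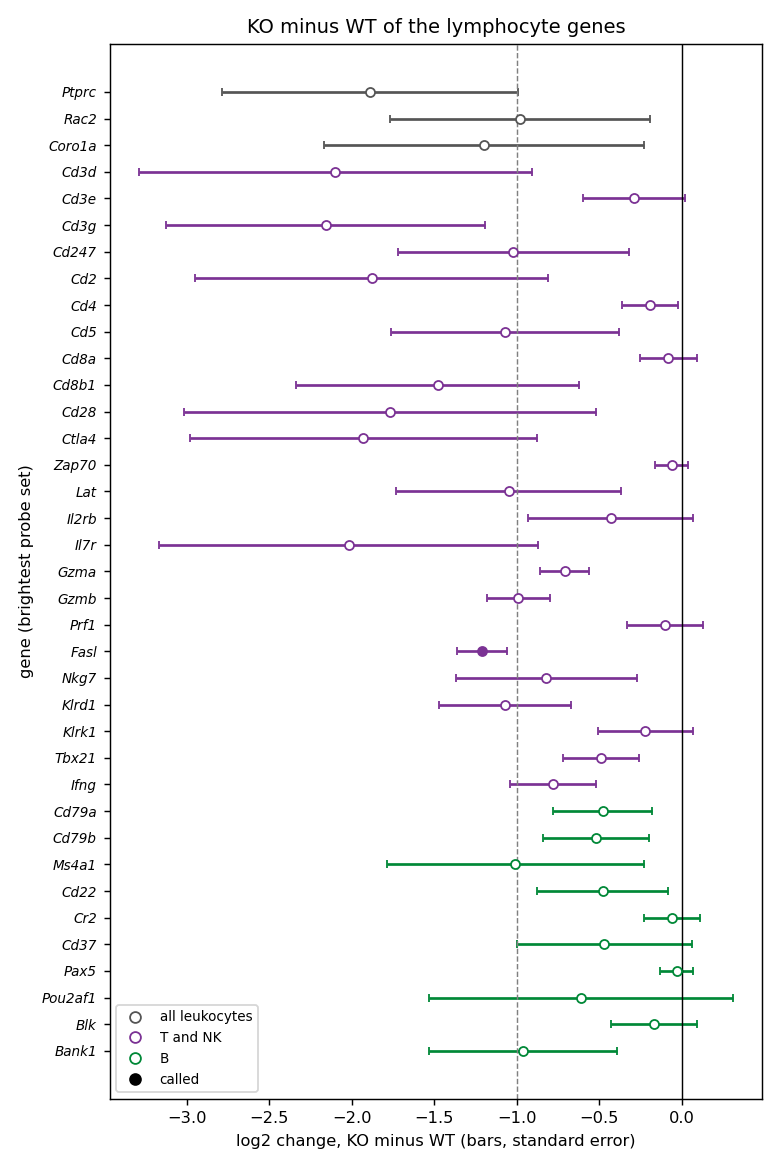
Difference KO minus WT (log2, horizontal axis) of each measured gene (vertical axis) with its standard error from limma, n = 3 arrays a group, and a dashed line at 2-fold lower. All 37 points lie below 0, and Fasl is the 1 gene called.

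T and NK genes stood beside B cell genes as follows. Averaged as deviations from each gene's mean, the 24 T and NK genes were at 1.5, 0.53 and -0.54 in WT and -0.89, 0.16 and -0.77 in KO. The 10 B cell genes were at 1.06, 0.19 and -0.53 in WT and -0.61, 0.34 and -0.45 in KO. Both lists put the arrays into the same high and low sets. WT2 exceeded KO6 in 15 of the 24 T and NK genes and in 3 of the 10 B cell genes, against 55.7% of all genes. The T and NK mean minus the B mean was 0.45, 0.34 and -0.01 in WT and -0.28, -0.18 and -0.32 in KO, with no KO array as high as any WT array. With the 4 T cell receptor chains in place of all T and NK genes it was 1.08, 0.71 and -0.42 against -0.48, 0.02 and -0.91, and the groups overlapped. They also overlapped with the coreceptors and surface molecules (0.88, 0.59 and -0.39 against -0.52, 0.08 and -0.64), with the leukocyte genes (1.42, 0.27 and -0.38 against -0.86, 0.24 and -0.69) and with the 5 cytotoxic genes (-0.22, 0.03 and 0.61 against 0, -0.57 and 0.14) in their place. The 5 cytotoxic genes, not set against B cell genes, were at 0.84, 0.23 and 0.08 in WT and -0.61, -0.22 and -0.31 in KO.

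Other lymphocyte genes were high on the same arrays: the further T and NK genes averaged 1.07, 0.39 and -0.39 in WT and -0.64, 0.17 and -0.60 in KO. Among the 51 listed, 43 were measured and 40 were lower in KO, with a median difference of -0.58, 1 called lower and 0 called higher by limma (9 lower and 1 higher at an unadjusted p under 0.05). Over all genes, 61.2% were lower, 0.462% called lower and 0.517% called higher. At an unadjusted limma p under 0.05, 2360 of the 18193 genes were lower and 1122 higher. The called gene was Xcl1, a chemokine of activated cytotoxic and NK cells, at 6.95, 5.47 and 6.07 in WT and 4.93, 4.60 and 5.12 in KO, a change of -1.28 (limma adjusted p = 0.117). Like the granzymes, Xcl1 had no KO array as high as any WT array. Of 30 further B and plasma cell genes, 28 were measured and 23 were lower in KO, with a median of -0.48, 1 called lower and 0 called higher by limma (6 lower and 0 higher at an unadjusted p under 0.05). That gene was Cd83, also made by dendritic cells, which changed by -1.69 (limma adjusted p = 0.0675). Among the genes of this list that were not lower, Cd24a (0.20) and Ly6d (0.65) had means of 14.05 and 12.66, near the top of the signal range. Which cells made their RNA was not tested.

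Genes of other cell types varied over the same arrays to unlike degrees. The 5 measured of 8 lymph node stroma genes averaged 1.54, 1.14 and -1.20 in WT and -1.14, 1.16 and -1.50 in KO. As for the lymphocyte genes, the high arrays were WT1, WT2 and KO6, and without Glycam1 the other 4 genes averaged 0.81, 0.36 and -0.21 against -0.95, 0.40 and -0.41. Glycam1, a glycoprotein of lymph node venules and also a milk protein, read 14.15, 13.96 and 4.54 in WT and 7.80, 13.89 and 3.83 in KO. Cxcl13, the chemokine that draws B cells into follicles, read 10.51, 9.58 and 8.58 in WT and 6.32, 9.87 and 7.52 in KO. Madcam1, an address molecule of venules, ranged from 5.41 to 6.17 and Clec4g, a lectin of lymph node and liver sinuses, from 4.79 to 5.48. The part of lymph node tissue in the differences between arrays was not tested.

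Macrophage and dendritic cell markers averaged 0.69, 0.55 and -0.26 in WT and -0.64, 0.10 and -0.43 in KO. Lower means in KO were found for 25 of the 27 measured, against 61.2% of all genes. In this list 5 were called lower (0.462% of all genes), C1qb (-1.19), Fcgr3 (-1.08), Aif1 (-1.41), Tyrobp (-1.20) and Cd83 (-1.69). Of these, Tyrobp is also a signalling adaptor of NK cells. Csf1r, the receptor that defines macrophages, read 9.25, 9.70 and 8.27 in WT and 7.63, 9.23 and 8.03 in KO and was not called. Granulocyte and mast cell markers averaged 0.38, 0.10 and 0.19 on the WT arrays, against -0.26, -0.03 and -0.38 on the KO arrays. Of 16 measured, 13 had a lower mean in KO and 3 were called lower, S100a9 (-1.04), Ltf (-1.90) and Cma1 (-1.01). Elane (0.02), Csf3r (0.09) and Cxcr2 (0.14) were not lower, and their means were below the olfactory receptor level. Ltf had a mean of 10.74, far above that level. Which cells made the Ltf RNA was not tested.

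The remaining lists ran differently. Endothelial markers averaged -0.10, -0.14 and -0.59 in WT and 0.50, 0.35 and -0.01 in KO, with Tie1 and Cldn5 called higher, 2 of 16 (0.517% of all genes). Fibroblast markers averaged -0.29, -0.33 and -0.16 in WT and 0.49, 0.57 and -0.28 in KO, with Col1a1, Fbln2 and Pi16 called higher, 3 of 16 (0.517% of all genes). Luminal and basal epithelial markers averaged between -0.19 and 0.16 on every array. Adipocyte markers averaged -0.49, 0.02 and 0.39 in WT and 0.05, -0.13 and 0.16 in KO, and erythroid markers -0.14 to 0.04. The part of cell makeup in the lymphocyte differences was not tested.

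**Figure D4:**
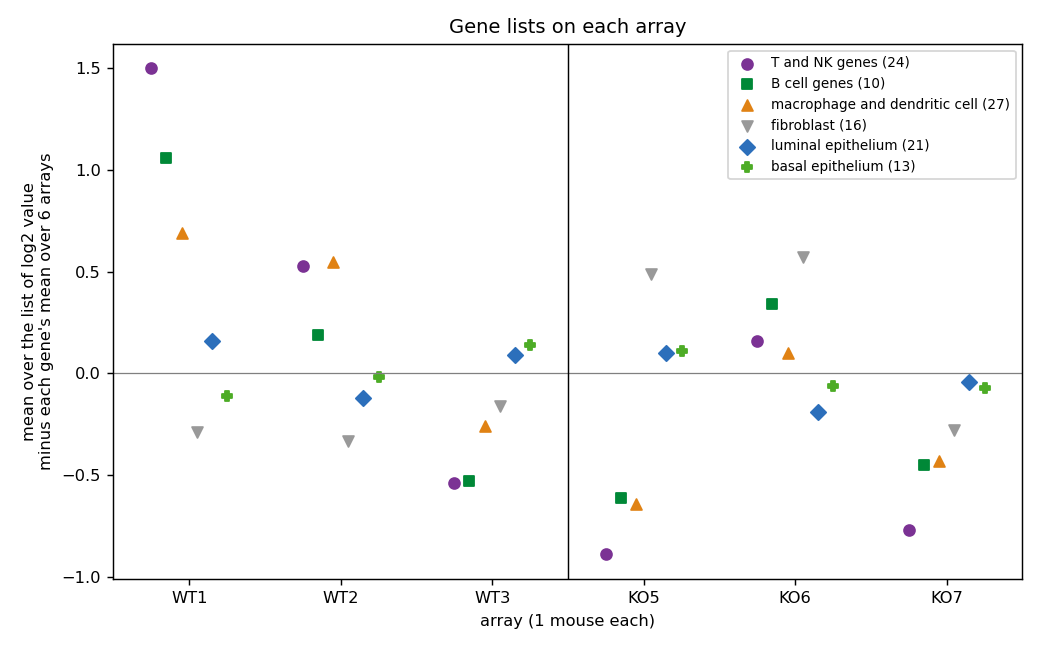
Mean deviation (log2, vertical axis) of the genes of each list from their own means on the 6 arrays (horizontal axis), for T and NK genes, B cell genes, macrophage and dendritic cell, fibroblast, luminal and basal markers. The lists of T and NK and of B cell genes are highest on WT1, WT2 and KO6, and the epithelial lists stay between -0.19 and 0.16.

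Ptprc, taken as a measure of leukocyte RNA per array, was added to the fit as a covariate. Since it is itself one of the 37 genes and varies with them, the fit removes what they share. The median difference became 0.16 over the T and NK genes and 0.23 over the B cell genes. Fasl (-1.01) and Gzmb (-1.00) were called lower in it (1.7% of all genes), and Pou2af1 (1.26) higher (1.12% of all genes), against -0.61 without the covariate. The mean of Pou2af1, 4.49, was below the olfactory receptor level of 4.99, which limits what can be read from its call.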

How the data were processed

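RNA from mammary epithelial organoids of 6 mice, 3 WT and 3 KO, was measured on Affymetrix arrays, 1 mouse per array. The authors deposited log2 values made by robust multichip averaging (RMA) from all arrays together; the submitters' processing notes name RMA, and its version is not given in the sources used here. RMA puts all arrays on one distribution, so a change shared by most genes would not be seen.

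Of 45101 probe sets, 64 Affymetrix controls were left out and 45037 tested with limma 3.58.1 in R 4.3.3 (lmFit and eBayes, WT against KO, p-values adjusted by Benjamini-Hochberg over all of them). Of those, 34945 carried 1 gene symbol in the platform annotation, 932 several and 9160 none. A call needed an unadjusted p under 0.01 together with a 2-fold difference or more. Each gene was read on its brightest probe set. Apart from the olfactory receptor reference and the signal range of the array, no level is compared between genes. There are no detection calls, so 39 olfactory receptor genes (median 3.93, 95th percentile 4.99) served as reference for low values.

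All 38 members are accounted for, with full statistics for called members; values on every array are given for those and for a fixed set of members, and Cd3d, Cd2, Cd28, Ctla4, Cd8b1, Lat, Gzmb, Ifng, Klrd1, Coro1a, Rac2, Il2rb, Prf1, Cd22, Pou2af1, Bank1 and, of the other lists, Glycam1 were added after their values were seen, as was the Ptprc covariate. Of the other lists (further T and NK genes, further B and plasma cell genes, macrophages and dendritic cells, granulocytes and mast cells, lymph node stroma, endothelium, fibroblasts, luminal and basal epithelium, adipocytes, erythroid cells) the called genes and some of the defining markers are named. No adipocyte or erythroid gene was called, and none is named. The members and lists were chosen with earlier results of these data known. Each array had its own mouse, so the spread between arrays can hold differences of mouse, organoid preparation, RNA quality and hybridization. These cannot be told apart here. The fitting code was tested on simulated data. Promoters came from RefSeq. Figures were drawn with Python 3.11.15 and matplotlib 3.10.9. Alternatives were other normalizations, scaling, variance priors, array weights, filters, call limits, probe set rules, a replicate block, an RNA quality covariate, each array left out, and each WT array alone as control.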

Additional observations from a re-analysis of the deposited data

How the results depend on the processing

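The count of T and NK genes called lower, 1 on all 6 arrays, was 2 with quantile normalization, 0 among probe sets with a mean of 6 or more (Fasl is not among them, and no B cell gene is), 7 with the 3′ minus 5′ covariate, 13 against WT1 alone, 0 against WT3 alone, 0 where a gene was read as the mean over its probe sets, 2 with the Ptprc covariate, 5 at an unadjusted p under 0.05 with no fold limit and 3 at p under 0.01 and 1.5-fold. With 1 array left out it ran from 1 to 8 (8 without WT3, 3 without WT2, 2 without KO7). The B cell count, 0, was 1 with the 3′ minus 5′ covariate (Cd79a, -1.44), 3 against WT1 alone and 0 to 1 with 1 array left out (Bank1 without WT3). The 1 gene called higher under any of these settings was Pou2af1 with the Ptprc covariate, which turned from -0.61 to 1.26. The T and NK median of -1.00 was -1.96 with the 3′ minus 5′ covariate, 0.11 against WT3 alone and 0.16 with the Ptprc covariate, and -1.29 to -0.39 with 1 array left out. The B cell median of -0.48 was -1.58, 0.22 and 0.23 in the same settings, -1.29 against WT1 alone (T and NK -1.71) and -0.85 to -0.05 with 1 array left out. A control arm of 1 array was assumed to vary as the KO arrays do, and WT1 was the highest and WT3 the lowest WT array for most of these genes, so those values restate that order. The share of all genes called lower was 0.489% with quantile normalization, 1.15% against WT1 alone, 1.59% against WT3 alone and 1.7% with the Ptprc covariate. It was 0.596% among probe sets with a mean of 6 or more, 0.55% with the 3′ minus 5′ covariate and 0.313% on the mean over probe sets. At an unadjusted p under 0.05 with no fold limit, 13% of all genes were lower by limma. No share of all genes is given for the 1.5-fold limit, so that count cannot be set against one. The cause of the shifts between settings was not tested. The labels do not say whether same-numbered WT and KO arrays were paired. The correlations of their deviations (-0.16, 0.16 and 0.10) cannot settle it with 3 arrays a group. With a replicate block 1 T and NK gene was called lower, Fasl at -1.21 (0.533% of all genes), and 0 B cell genes were. The medians stayed -1.00 and -0.48. The block narrowed the SE of some genes (Cd3d, from 1.19 to 0.82) and not of others (Coro1a, 0.97 in both fits). Genes near the olfactory receptor level have little signal over background, which limits what can be read from 5 of the B cell genes and 5 of the T and NK genes, Cd5, Klrk1, Tbx21, Fasl and Ifng. These were picked by their mean over the 6 arrays. Cd3g, Cd2, Cd28, Ctla4, Cd8b1, Ms4a1 and Bank1 had means above 4.99 but read below it on KO5 and KO7, which limits the size of their differences. Cd5 and Pou2af1 had means below it but read 7.06 and 6.58 on WT1.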

Other observations

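Of the further lymphocyte genes, 4 are described here that were chosen after their values were seen, and they do not stand for a class: the plasma cell genes Tnfrsf17, Irf4 and Mzb1 had ranges of 0.35, 1.19 and 1.40. Igha, the heavy chain of immunoglobulin A, read 10.89, 9.23 and 8.04 in WT and 5.41, 10.11 and 6.61 in KO. Jchain, which joins IgA and IgM into polymers, read 8.37, 7.42 and 5.77 in WT and 3.51, 7.05 and 3.97 in KO. For both, WT1, WT2 and KO6 were high and KO5 lowest, with WT3 above KO5 and KO7. Cd69, an early activation marker that also retains T cells in tissue, read 9.15, 8.57 and 5.99 in WT and 3.79, 7.05 and 3.76 in KO, a difference of -3.04 (SE 1.08; limma adjusted p = 0.19). WT3 exceeded KO5 and KO7 and lay below KO6. Itgae, the CD103 integrin of T cells in epithelium, read 6.36, 6.30 and 5.77 in WT and 5.42, 5.59 and 5.24 in KO. Its lowest WT value exceeded its highest KO value, and its difference was -0.73 (SE 0.18; limma adjusted p = 0.103), short of the fold limit for a call.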
